A study of Mus musculus with 24 samples.

Results

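The oligodendrocyte precursor and lineage genes described here are Pdgfra, Cspg4, Olig1, Olig2, Sox10, Gpr17, Bmp4, Enpp6, Myrf and Nkx2-2. They are 10 of the 22911 gene symbols on the array and were taken as a list of names. That list was chosen with earlier results of these data known. Every probe whose transcript maps to one of them was kept, which gave 13 probes: 2 each for Bmp4, Enpp6 and Nkx2-2 and 1 for each of the other 7 genes. Total RNA of whole cerebellum from mice aged 28 days was measured on 24 single-colour Agilent arrays in 12 groups of 2.

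All mice were C57BL/6. In the knockouts a floxed Derlin-1 or Derlin-2 gene is deleted by a Cre recombinase under the nestin promoter, which is active in neural progenitors, so that neurons, astroglia and oligodendrocytes can all carry the deletion while microglia and vessel cells are not its target. The controls carry the floxed alleles (Derlin-1 flox/flox or Derlin-2 flox/flox), and the labels name no Cre in them. Derlins are membrane proteins of the endoplasmic reticulum that take part in the removal of misfolded proteins, and 4-phenylbutyrate (4PBA) is used as a chemical chaperone. A numbered series holds Derlin-1 control and Derlin-1 KO with vehicle (water) and with 4PBA, and a Derlin-2 series holds the same 4 groups of the other line. In both, 4PBA at 200 mg/kg or water was injected into the peritoneum daily from day 14 to day 28. A lettered series (arrays a and b) holds Derlin-1 control and KO with 4PBA, at the same dose and over the same days, and without it. For the latter it names no injection. Each series lay on its own slide of 8 arrays, so series and slide cannot be told apart, and every knockout and 4PBA comparison was made within slides. The rows and columns of a slide coincide with treatment and genotype and cannot be told apart from them. The labels do not say that the arrays of a group came from separate animals, and p-values measure the spread between these samples only.

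Oligodendrocyte precursors divide under platelet-derived growth factor, which they sense through the receptor Pdgfra, and carry the surface proteoglycan NG2, the product of Cspg4. The transcription factors Olig1, Olig2, Sox10 and Nkx2-2 fix and advance the lineage, Gpr17 and Bmp4 are transcribed in precursors that are committed to differentiate, and Enpp6 and Myrf mark the newly formed cells that begin to make myelin. In the cerebellum the lineage fills the white matter and is sparser in the granule and molecular layers.

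Levels are log2 intensities minus the array's 75th percentile, so that 0 is the brightness of the probe at that percentile, and levels of different probes are not comparable. Of the 13 probes, 11 were well above background on all 24 arrays. The Nkx2-2 probe A_55_P1985905 was on 23, with its spot flagged on the array Derlin-2 control 4PBA 2 and left out there. The Myrf probe was well above background on 5 arrays, which were the 4 lettered arrays without 4PBA and Derlin-1 KO 4PBA b. All 13 entered the test, each for being well above background on both arrays of at least 1 group. Intensities at the 75th percentile ran from 890 to 1169 and no spot was saturated. All 9 Purkinje cell, all 9 granule neuron and all 14 mature myelin markers were well above background on every array. Array 1 of the Derlin-2 KO vehicle group read Derl2 at 2.30 on one probe, against 0.73 to 1.08 on the line's other KO arrays and 1.96 to 2.14 on its controls. Its Derl3 level went with its label: it was -1.26, against -1.40 to -0.01 on the line's other KO arrays and -2.47 to -2.15 on its controls. Lettered array b of the Derlin-1 KO 4PBA group read Derl3 at -1.73, within the Derlin-1 controls (-2.57 to -1.13), while the line's other KO arrays lay at -0.06 to 0.92. The Derl1 probe did not separate Derlin-1 KO from control arrays. The main results that rest on either array are given with and without both.

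**Figure D1:**
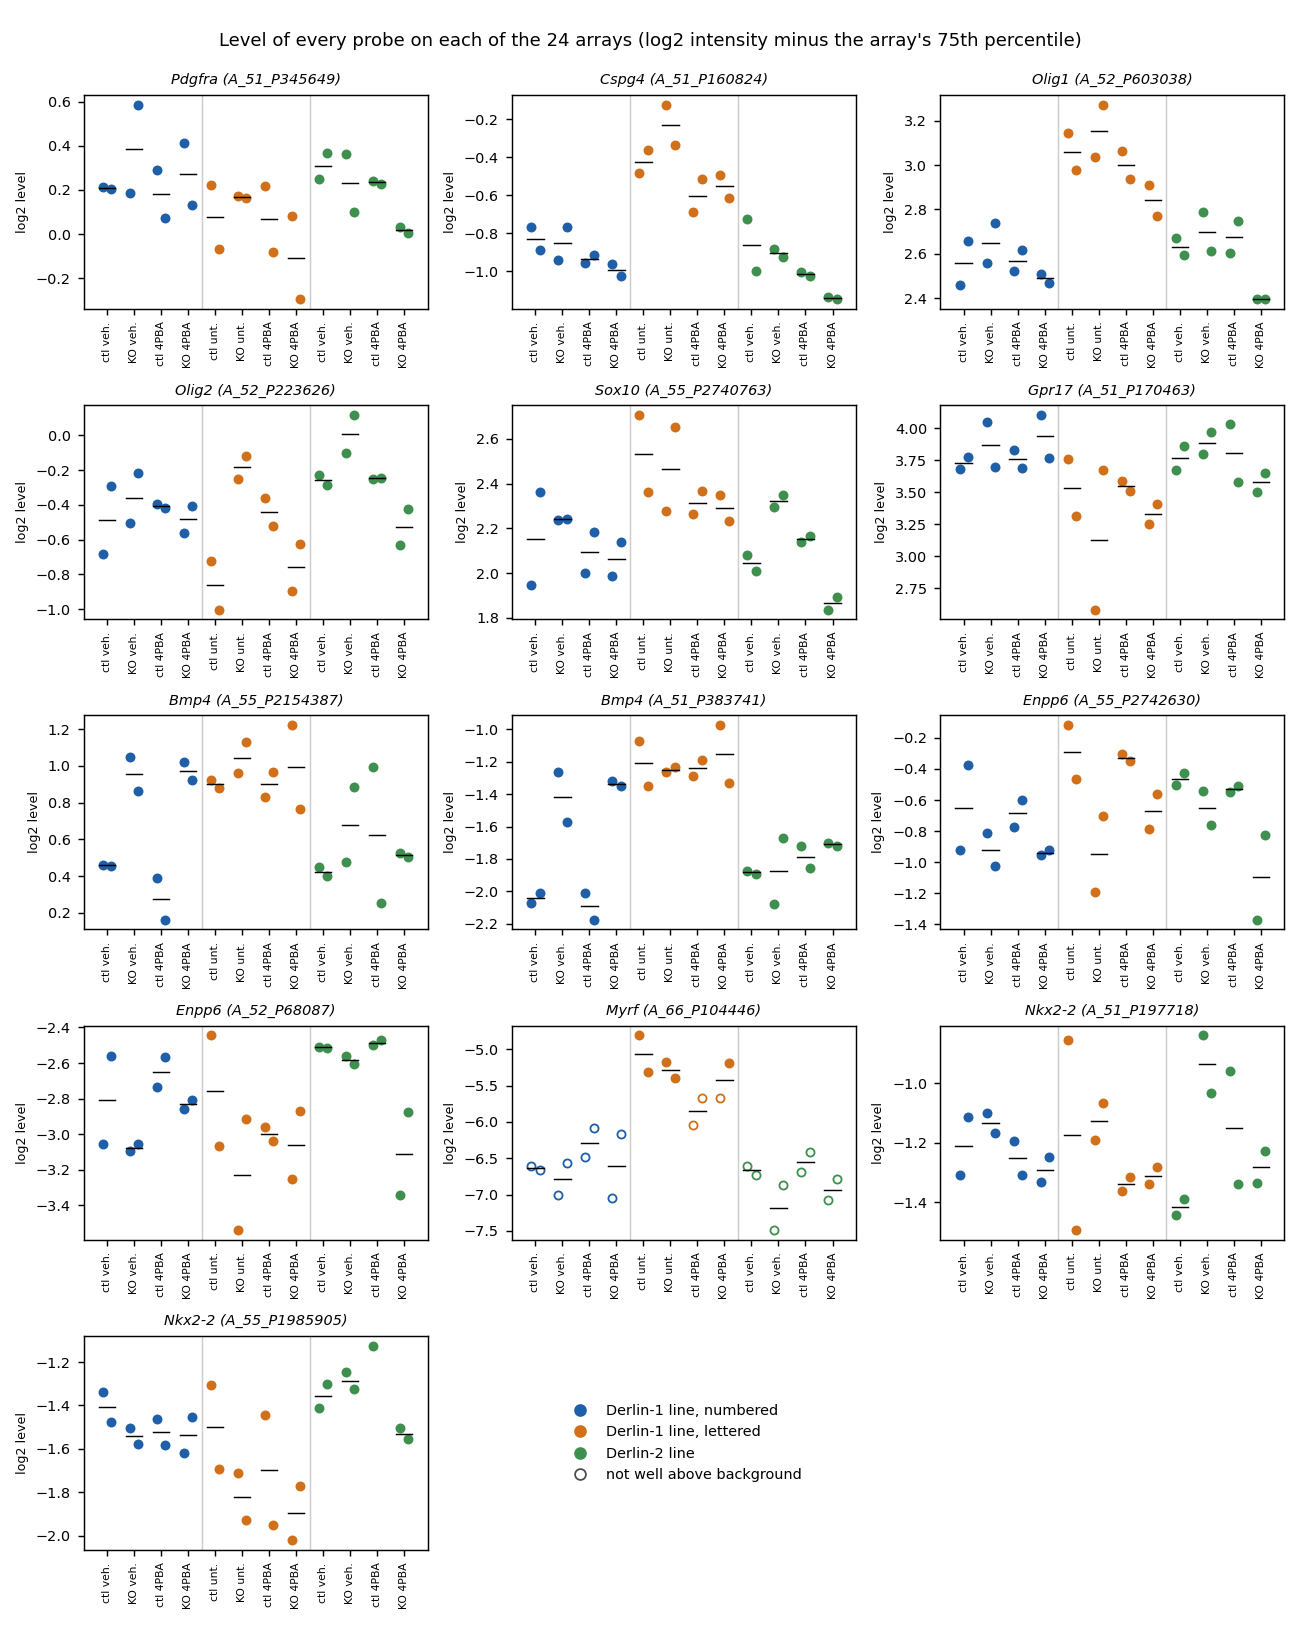
Log2 level of each of the 13 probes (y axes, log2 intensity minus the array's 75th percentile) on every array, by group (x axes); short lines are means of 2 arrays and open points were not well above background. The Cspg4 points of the lettered series lie above those of both other series, the Myrf points of the latter were all not well above background, and the Bmp4 points of the numbered KO groups lie above their controls.

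In Derlin-1 KO cerebellum without 4PBA, Olig2 was the 1 of the 13 probes that passed the test (limma, Benjamini-Hochberg over 38110 probes, adjusted p under 0.05), and it rose by 0.40 on the log2 scale, 1.32-fold. Over all tested probes 4.94% passed and 2.4% passed as higher, so that 1 of 13 is close to the background. Of the 12 probes without Myrf, 5 had an unadjusted limma p under 0.05, beside 20.2% of all probes. Olig2 is a basic helix-loop-helix factor needed for the lineage to form. Across the other 11 probes that were above background, changes ran from -0.46 for Enpp6 to 0.32 for Bmp4. Over the 12 probes without Myrf the median change was 0.07 beside 0.01 for all tested probes, with 8 higher and 4 lower. Of all tested probes 48.0% were lower.

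Promoter windows are shown for Olig2, Bmp4 and Enpp6, the genes with a probe that passed in one of the Derlin-1 comparisons. Each is the 250 bases before the RefSeq gene start in GRCm38.p6. Capitals mark matches, on either strand, of CANNTG (the E-box bound by Olig factors), ACAAT (the core bound by Sox factors) or GGCGCC (an element bound by Smads of the BMP pathway). No matches of different motifs overlapped.
Olig2, chr16:91225300-91225549, plus strand: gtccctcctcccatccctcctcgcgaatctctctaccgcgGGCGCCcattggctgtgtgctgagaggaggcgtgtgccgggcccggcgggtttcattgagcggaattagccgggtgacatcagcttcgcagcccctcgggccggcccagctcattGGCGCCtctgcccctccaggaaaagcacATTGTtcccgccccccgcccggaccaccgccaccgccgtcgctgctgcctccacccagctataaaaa
Bmp4, chr14:46390670-46390919, minus strand: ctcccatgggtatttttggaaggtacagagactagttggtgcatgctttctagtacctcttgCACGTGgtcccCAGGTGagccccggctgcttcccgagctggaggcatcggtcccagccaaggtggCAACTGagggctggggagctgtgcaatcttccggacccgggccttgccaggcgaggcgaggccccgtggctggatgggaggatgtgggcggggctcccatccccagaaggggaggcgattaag
Enpp6, chr8:46986637-46986886, plus strand: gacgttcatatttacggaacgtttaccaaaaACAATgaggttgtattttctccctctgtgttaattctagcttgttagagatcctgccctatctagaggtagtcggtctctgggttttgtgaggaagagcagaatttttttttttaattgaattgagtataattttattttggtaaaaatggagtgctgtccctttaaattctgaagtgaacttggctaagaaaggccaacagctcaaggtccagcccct
The Olig2 window held 2 matches of GGCGCC and 1 of ACAAT, the Bmp4 window 3 of CANNTG, and the Enpp6 window 1 of ACAAT. Of 32851 windows of this length, 66.2% held CANNTG, 27.7% ACAAT and 9.6% GGCGCC. The matches are a description of letters, not of binding.

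On the numbered arrays with vehicle, Olig2 was at -0.68 and -0.29 in the controls and at -0.50 and -0.22 in the knockouts, so the groups overlapped. On the lettered arrays without 4PBA it was at -0.72 and -1.002 in the controls and at -0.25 and -0.12 in the knockouts, which stood above both controls, as 19.8% of all probes did. The difference was 0.13 (SE 0.15, adjusted p = 0.914) in the numbered series and 0.68 (SE 0.15, adjusted p = 0.0597) in the lettered one, where 0.656% of all probes passed. The difference between both series was 0.55 (SE 0.22, adjusted p = 0.968), and 0.0131% of all probes passed there. Their mean of 0.40 (SE 0.11, 95% interval 0.17 to 0.64) had an adjusted p of 0.0497, against a range of 0.0263 to 0.914 over 39 alternative settings. It passed without both arrays in doubt (adjusted p = 0.0468). It was lost under 8 of 15 changes of processing or samples, such as quantile normalization (adjusted p = 0.073) and scaling to the median (0.28, adjusted p = 0.3). It was also lost with 21 of the 24 arrays left out singly, all but Derlin-1 control vehicle 2 and the lettered Derlin-1 KO 4PBA arrays a and b, where the change ran from 0.31 to 0.50 and the adjusted p from 0.0405 to 0.185.

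Olig1, whose gene lies next to Olig2 with 1 gene of the RefSeq table between them, did not pass. It was at 2.46 and 2.66 in numbered vehicle controls and at 2.56 and 2.74 in the knockouts, and at 3.14 and 2.98 against 3.04 and 3.27 on the lettered arrays without 4PBA. The groups overlapped in both series, and the mean difference of 0.09 had a 95% interval of -0.08 to 0.27.

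Under 4PBA no member passed in Derlin-1 KO against control, where 0.0604% of all probes did (23 probes, and 917 without both arrays in doubt), and 2 of the 12 probes without Myrf had an unadjusted p under 0.05, beside 9.89% of all probes. Olig2 was at -0.40 and -0.42 in numbered controls and at -0.56 and -0.41 in numbered knockouts. On the lettered arrays with 4PBA it was at -0.36 and -0.52 in controls and at -0.90 and -0.62 in knockouts, below both controls, while without 4PBA the knockouts stood above them. Of the 13 member probes, 4 were below both controls there with 4PBA, as 11.8% of all probes were. Those 4 were Olig1, Olig2, Gpr17 and Enpp6 A_55_P2742630. The mean Olig2 difference of both series was -0.20 (SE 0.11, adjusted p = 0.602). The knockout effect on Olig2 was therefore 0.60 lower under 4PBA than without (change of -0.60, SE 0.15, 95% interval -0.93 to -0.27), at an unadjusted p of 0.00162 and an adjusted p of 1 in limma, where 0.0315% of all probes passed. It was 0.20 lower in the numbered series (change of -0.20, SE 0.22, 0.0577% of all probes called) and 0.999 lower in the lettered one (change of -0.999, SE 0.22, adjusted p = 1, with 0 probes of all called). Without both arrays in doubt, Olig2 differed by -0.27 under 4PBA (adjusted p = 0.354), and the effect under 4PBA minus that without was -0.67 (adjusted p = 1).

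**Figure D2:**
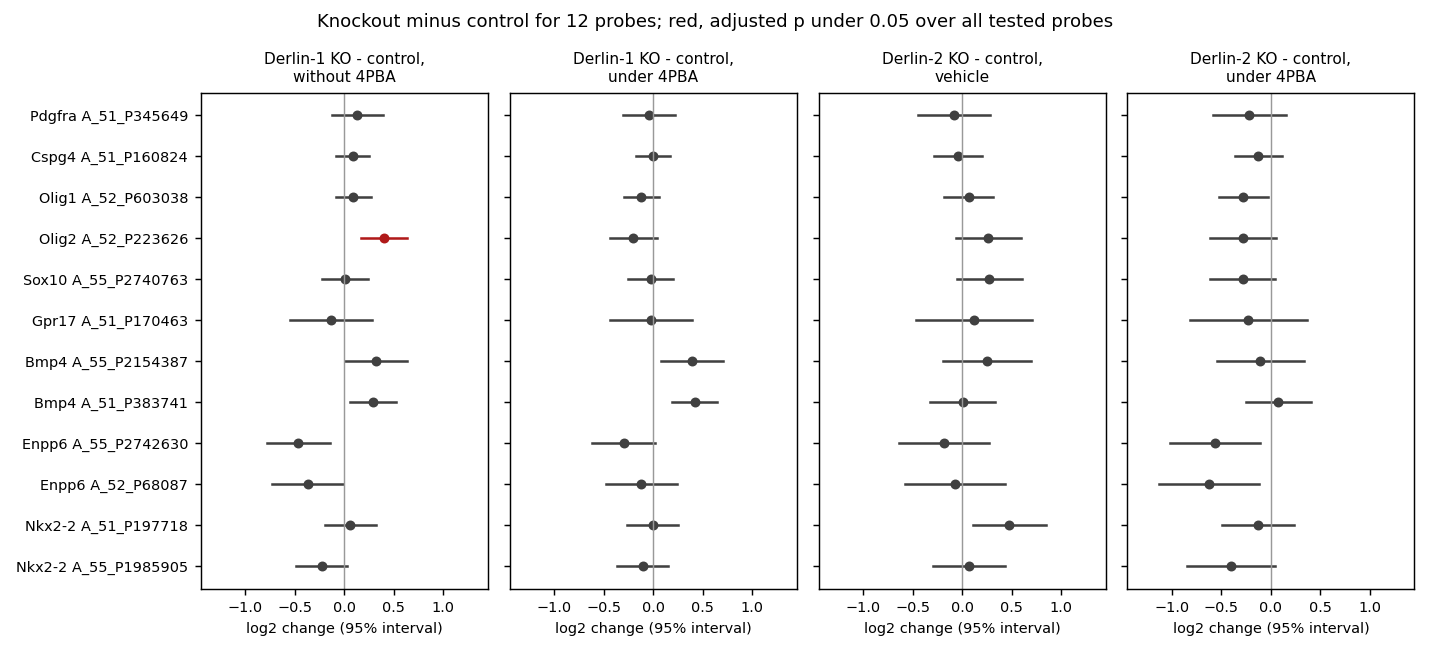
Log2 change, knockout minus control (x axes), with 95% intervals from limma for the 12 probes other than Myrf (rows), in the 4 knockout comparisons (panels). Red marks the 1 probe with adjusted p under 0.05, Olig2 at 0.40 in Derlin-1 KO without 4PBA.

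Bmp4, a secreted ligand that holds back oligodendrocyte maturation when in excess and directs precursors towards astroglia, was higher in numbered Derlin-1 knockouts on both of its probes. On the brighter probe, A_55_P2154387, numbered controls lay at 0.46 and 0.45 with vehicle and at 0.39 and 0.16 with 4PBA. The numbered knockouts lay at 1.05 and 0.86 with vehicle and at 1.02 and 0.92 with 4PBA. On A_51_P383741 the 4 numbered controls spanned -2.17 to -2.01 and the 4 knockouts -1.57 to -1.26. On both probes, then, all 4 numbered knockouts stood above all 4 controls, as 7.49% of all probes did in that direction.

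With vehicle the numbered difference was 0.49 (SE 0.21, adjusted p = 0.437) on the brighter probe and 0.62 (SE 0.15, adjusted p = 0.171) on the other, where 0.0236% of all probes passed. With 4PBA it was 0.70 (SE 0.21, adjusted p = 0.282) and 0.76 (SE 0.15, adjusted p = 0.0995), the latter a 1.69-fold difference, where 0.118% of all probes passed. Neither probe passed in either comparison taken alone.

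In the lettered series the same probes overlapped between genotypes. The brighter probe spanned 0.83 to 0.97 in the 4 controls and 0.77 to 1.22 in the 4 knockouts, and A_51_P383741 spanned -1.35 to -1.07 and -1.33 to -0.98. Without array b of the KO 4PBA group the knockouts spanned 0.96 to 1.22 and -1.26 to -0.98, which also overlapped the controls. Without 4PBA the lettered differences were 0.14 (SE 0.21) and -0.038 (SE 0.15), and with 4PBA 0.09 (SE 0.21) and 0.08 (SE 0.15), where 0.0131% of all probes passed. The lettered effect minus the numbered effect, over both injections, was -0.48 (SE 0.21, adjusted p = 0.889) on the brighter probe. On A_51_P383741 it was -0.67 (SE 0.15, unadjusted p = 0.000628, adjusted p = 0.647), and 0.021% of all probes passed. On A_51_P383741 all 8 lettered arrays, controls included, lay above all 4 numbered controls, as 13.7% of all probes did.

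Averaged over both series, Bmp4 A_51_P383741 differed by 0.29 (SE 0.11, adjusted p = 0.138) without 4PBA and by 0.42 (SE 0.11, adjusted p = 0.216) under 4PBA. Under 4PBA it passed without both arrays in doubt, at 0.51 (adjusted p = 0.0164), and without lettered Derlin-1 KO 4PBA b alone (adjusted p = 0.0294). A comparison added after these values were seen took the mean over both series and both injections, 8 knockout against 8 control arrays. In it 3 of the 13 member probes passed, beside 9.7% of all probes. Bmp4 rose by 0.36 (SE 0.08, adjusted p = 0.0111) on A_51_P383741 and by 0.36 (SE 0.10, adjusted p = 0.043) on A_55_P2154387. The former call was lost in the lettered series alone (0.02, adjusted p = 0.937) and with median scaling (0.27, adjusted p = 0.0948), and with no single array left out. The latter was lost under 5 of the 15 changes of processing or samples and with 18 of the 24 arrays left out singly. Those were all 8 numbered arrays, both Derlin-2 control vehicle and both Derlin-2 KO 4PBA arrays, and all lettered arrays but Derlin-1 control 4PBA b and KO 4PBA b, and its adjusted p ran from 0.016 to 0.123. Without both arrays in doubt both Bmp4 probes passed (adjusted p = 0.00179 and 0.0168).

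Markers of fibroblasts and meninges moved with Bmp4 in the numbered series. The summed level (linear, per array) of 7 such markers, all well above background on every array, was 27.5 to 29.9 in numbered vehicle controls and 37.0 to 38.4 in the knockouts. With 4PBA it was 27.8 to 30.3 in controls and 35.5 to 37.0 in knockouts. In the lettered series it was 29.9 to 35.01 in controls and 25.3 to 36.7 in knockouts (33.6 to 36.7 without KO 4PBA b), which overlapped, as Bmp4 did. One of the 7, Fmod, a collagen-binding proteoglycan, rose by 0.995 (SE 0.20, adjusted p = 0.0146) in Derlin-1 KO without 4PBA. The part of these cells in the Bmp4 difference was not tested.

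**Figure D3:**
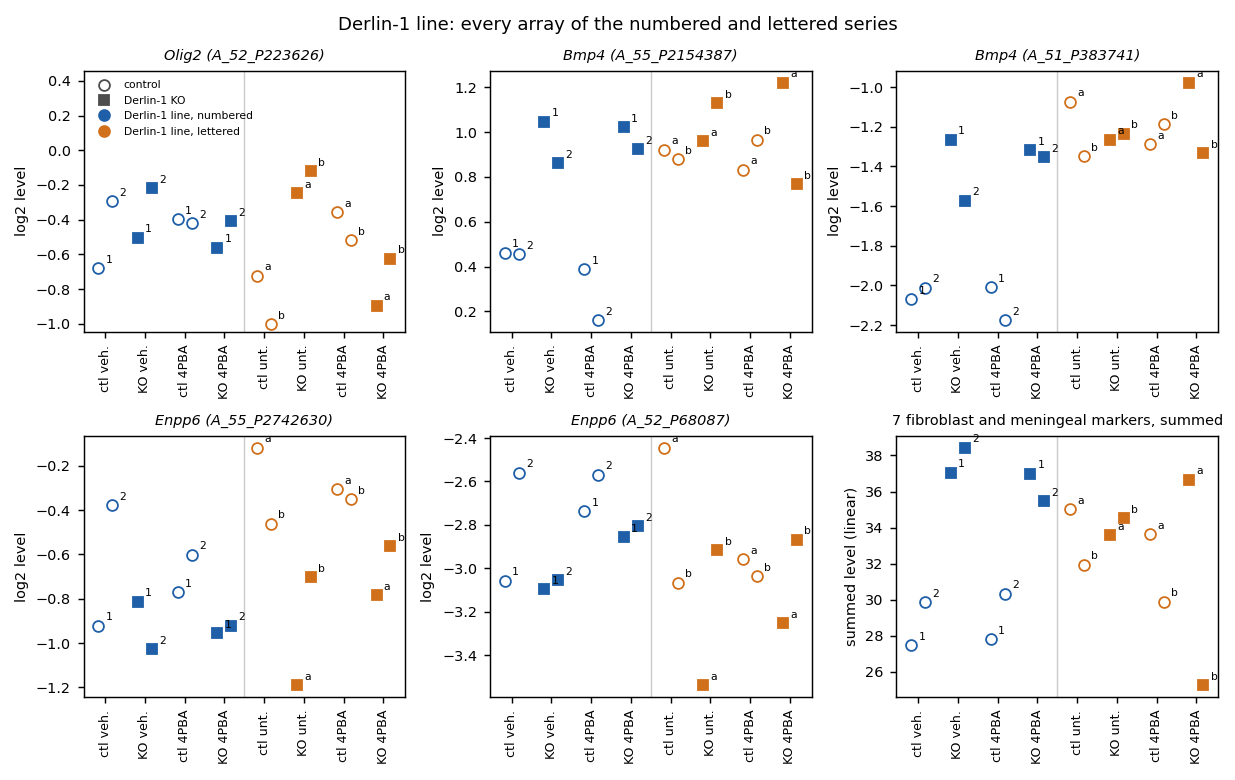
Levels of Olig2, both Bmp4 and both Enpp6 probes (log2) and the summed linear level of 7 fibroblast and meningeal markers (last panel) on each Derlin-1 line array, by group; open circles are controls, squares knockouts, and the small numbers and letters name the arrays. Bmp4 and the summed markers separate the genotypes in the numbered series (left of the grey line) and not in the lettered one.

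Enpp6, a choline phosphodiesterase of newly formed oligodendrocytes, was lower in Derlin-1 knockouts. On the brighter probe, A_55_P2742630, the numbered vehicle controls lay at -0.92 and -0.38 and the knockouts at -0.81 and -1.03, with overlap. The lettered controls without 4PBA lay at -0.12 and -0.46 and the knockouts at -1.19 and -0.70, both below the controls, as 21.4% of all probes were. With 4PBA the lettered values were -0.30 and -0.35 against -0.78 and -0.56, so that all 4 lettered knockouts were below all 4 lettered controls, as 3.05% of all probes were.

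The averaged difference of that probe was -0.46 (SE 0.15, adjusted p = 0.092) without 4PBA and -0.30 (SE 0.15, adjusted p = 0.548) under 4PBA, and under 4PBA -0.35 (adjusted p = 0.422) without both arrays in doubt. Without 4PBA it passed when the lettered array Derlin-1 KO b was left out (adjusted p = 0.0367). In the added mean over both series and injections Enpp6 fell by 0.38 (SE 0.11, adjusted p = 0.0366), to 0.768 of the control level. That call was lost under 6 of the 15 changes of processing or samples and with 11 of the 24 arrays left out singly (all numbered arrays but control vehicle 1, and array a of each lettered group), and its adjusted p ran from 0.0165 to 0.102. It passed without both arrays in doubt (adjusted p = 0.0406). The other probe, A_52_P68087, did not pass in any comparison, with -0.37 (SE 0.17, adjusted p = 0.23) without 4PBA and -0.25 (SE 0.12, adjusted p = 0.216) in the added mean. Olig2 did not pass in the added mean (0.10, SE 0.08, adjusted p = 0.462).

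The 2 probes of one gene can be set against each other over the 24 arrays, each array's value taken after its slide's mean was subtracted. For Bmp4 Pearson's r was 0.84 (permutation p = 7e-05, two-sided) and Spearman's rho 0.86 (permutation p = 5e-05), and r was 0.84 without the 2 arrays farthest from the median. For Enpp6 r was 0.88 (permutation p = 1e-05, the smallest the 100000 resamples can give) and rho 0.77 (permutation p = 5e-05), and r was 0.77 without the 2 farthest arrays. For Nkx2-2, over 23 arrays, r was 0.41 (permutation p = 0.09) and rho 0.27 (permutation p = 0.3), and r was 0.13 without the 2 farthest arrays. These were the 3 relations tested, and the adjusted p-values of r were 0.000105, 3e-05 and 0.09.

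No probe of Pdgfra, Sox10, Gpr17 or Nkx2-2 passed in a Derlin-1 comparison. Pdgfra, the receptor that drives precursor division, ranged over all 24 arrays from -0.30 to 0.59 with a median of 0.19, and its Derlin-1 KO difference was 0.13 (95% interval -0.12 to 0.39) without 4PBA and -0.04 (-0.30 to 0.22) under it, or 0.05 without both arrays in doubt. For Sox10, which with Olig2 turns on myelin genes, the differences were 0.01 (-0.22 to 0.24) and -0.03 (-0.26 to 0.20). Gpr17, a receptor that stops differentiation while it is present, had the widest spread of the probes above background on all arrays, with 1.52 log2 units between the lowest and the highest array. Its lowest value, 2.58, was on the lettered array Derlin-1 KO a, against 3.67 on its partner b. Its difference without 4PBA was -0.13 (SE 0.19, 95% interval -0.55 to 0.28). The Nkx2-2 probes, of a factor that promotes differentiation, differed by 0.06 (SE 0.12) and -0.23 (SE 0.12, adjusted p = 0.308).

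Cspg4 separated the lettered slide from both others. It lay between -0.69 and -0.12 on the 8 lettered arrays and between -1.15 and -0.73 on the other 16, with no overlap, as 6.74% of all probes did in that direction. Pericyte markers, which share Cspg4 expression, followed the same order: the summed linear level of 6 was 19.2 to 23.3 on lettered arrays and 15.6 to 19.0 on the rest. The summed level of 18 other precursor genes separated the slides in the opposite direction, at 90.2 to 108 on lettered arrays and 113 to 142 on the rest. The part of the pericyte markers in the Cspg4 level was not tested. Cspg4 was 1 of 2 member probes without overlap, the other being Myrf, which was not well above background on the other 16 arrays. Olig1 overlapped little, at 2.77 to 3.27 on lettered arrays and 2.40 to 2.79 on the rest. Slide, scan day and series cannot be told apart here. Within slides, Cspg4 differed between Derlin-1 KO and control by 0.08 (95% interval -0.09 to 0.25) without 4PBA and by -0.00 (-0.17 to 0.17) under it, or 0.03 without both arrays in doubt.

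Myrf, the factor that starts and maintains myelin gene transcription, lay at -4.81 and -5.32 in the lettered controls without 4PBA and at -5.17 and -5.40 in the knockouts, the only groups in which both arrays were well above background. The lettered difference was -0.22 (SE 0.30, 95% interval -0.86 to 0.42). In no other group were both arrays above background.

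Other genes of the lineage and of its signals were counted from lists. Of 18 further precursor genes none passed in Derlin-1 KO without 4PBA (median 0.14 over 31 probes), and none of 5 PDGF signalling genes (median 0.11) or of 18 tested BMP signalling genes (median 0.10) did. One of 11 genes of newly formed oligodendrocytes passed: Cnksr3, a scaffold of kinase signalling, fell by 0.52 (SE 0.13, adjusted p = 0.0378), while the median of that list was 0.10. Of 14 mature myelin genes 1 passed, Mbp, a main protein of compact myelin, which fell by 0.75 (SE 0.13, adjusted p = 0.00745) with a list median of -0.15. In the added mean over both series and injections, Cspg5, a proteoglycan of glia and neurons, fell by 0.28 (SE 0.08, adjusted p = 0.0331). Bmpr1b, a BMP receptor, rose there by 0.22 (SE 0.07, adjusted p = 0.0474). None of 9 tested proliferation genes passed in either comparison. Under 4PBA, and in the Derlin-2 knockout comparisons, no gene of these lists passed.

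Markers of other cells also changed in Derlin-1 KO without 4PBA. Of 10 microglia markers 7 rose, led by Trem2 at 1.77 (SE 0.28) and Aif1 at 1.49 (SE 0.23). Of 8 astrocyte and Bergmann glia markers 1 rose, the filament gene Gfap, by 1.46 (SE 0.22), and the median over the list's 11 probes was -0.05. The summed level of the 8 was 258 to 267 in lettered knockouts without 4PBA against 282 to 333 in their controls, and 360 to 362 against 346 to 361 in the numbered series. Of 9 granule neuron markers 3 fell, Cbln3 by 0.82, Gabra6 by 0.76 and Neurod1 by 0.68. None of 7 choroid plexus, 6 pericyte or 9 Purkinje cell markers passed. In bulk tissue, fewer cells of a type and less RNA per cell cannot be told apart, and the part of the other cells in the member values was not tested.

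In the Derlin-2 line no member passed in any comparison, and with vehicle the members lay on both sides of the controls. Over the 12 probes other than Myrf the median Derlin-2 KO change with vehicle was 0.07, beside 0.00 for all probes, of which 0.121% passed (46 probes, and 164 without both arrays in doubt), and 1 of the 12 had an unadjusted p under 0.05, beside 6.94% of all probes. That was Nkx2-2 A_51_P197718, at -1.44 and -1.39 in the controls and at -0.84 and -1.03 in the knockouts (0.48, SE 0.17, adjusted p = 0.594). The higher of both values, -0.84, was on the array whose Derl2 goes against its label. The gene's other probe was at -1.41 and -1.30 against -1.25 and -1.32, with a difference of 0.07 (95% interval -0.29 to 0.43), so the probes disagreed. Both vehicle knockouts stood above both controls for Nkx2-2 A_51_P197718, Olig2, Sox10 and Bmp4 A_55_P2154387, as 23.6% of all probes did, and below them for both Enpp6 probes and for Myrf, which was not well above background there, as 23.6% did in that direction. Olig2 differed by 0.27 (SE 0.15, adjusted p = 0.771) and Sox10 by 0.28 (SE 0.15, adjusted p = 0.762). Without the array in doubt the median over the 12 probes was 0.12 and the Nkx2-2 difference 0.38 (adjusted p = 0.688). Enpp6 A_52_P68087, at -3.34 to -2.56 on the 4 Derlin-2 knockouts of both injections and -2.52 to -2.47 on the 4 controls, was the 1 probe above background that separated the genotypes on the slide, as 2.03% of all probes did in that direction.

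With 4PBA, 8 of the 13 probes were lower on both Derlin-2 KO arrays than on all other 6 arrays of the slide, as 9.74% of all probes were. These were Pdgfra, Cspg4, Olig1, Olig2, Sox10, both Enpp6 probes and Nkx2-2 A_55_P1985905, the last over 5 other arrays. The share of all probes was taken over probes with a value on every array compared, which this Nkx2-2 probe lacks. Olig1 was at 2.40 and 2.40 on the Derlin-2 KO 4PBA arrays and between 2.59 and 2.79 on the others. Sox10 was at 1.84 and 1.89 there, and between 2.01 and 2.35 elsewhere on the slide. The brighter Enpp6 probe was at -1.37 and -0.83, and between -0.76 and -0.43 elsewhere. The count was also 8 without the array in doubt, where 10.2% of all probes, again those with every value, met the criterion.

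Against 4PBA controls, the median Derlin-2 KO change was -0.25, with 11 of 12 probes lower, beside 0.00 and 49.4% lower for all probes. No member passed there (0.165% of all probes did; 3 of the 12 had an unadjusted p under 0.05, beside 4.98% of all probes), and the smallest adjusted p was 0.796, for the brighter Enpp6 probe at -0.57 (SE 0.21). Against Derlin-2 KO with vehicle, the median change was -0.31, with 11 of 12 lower, beside -0.05 and 57.7% lower for all probes, of which 0.144% passed (55 probes, and 5248 with no filter on dim probes, none of them a member). The smallest adjusted p was 0.31, for Olig2 at -0.54 (SE 0.15, 95% interval -0.87 to -0.20), and 4 of the 12 had an unadjusted p under 0.05, beside 8.65% of all probes. Without the array in doubt, KO vehicle 1, that median was -0.29 and Olig2 changed by -0.64 (adjusted p = 0.247). The Derlin-2 KO effect under 4PBA minus that with vehicle had a median of -0.37 (-0.01 for all probes, of which 0.0893% passed) and no call among the members, 3 of 12 having an unadjusted p under 0.05 (4.84% of all probes), and -0.44 without the array in doubt.

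The members were not alone in this: of 13 lists of other genes, 5 had a summed linear level that was lower on both Derlin-2 KO 4PBA arrays than on the slide's other 6, and none one that was higher. Besides newly formed oligodendrocyte genes these were PDGF signalling genes (11.8 to 12.3 against at least 12.7), proliferation genes (9.60 to 9.91 against at least 10.3), astrocyte and Bergmann glia markers (285 to 296 against at least 312) and Purkinje cell markers (1021 to 1127 against at least 1133). The median change of Derlin-2 KO under 4PBA was -0.31 for the mature myelin probes, with none called and a summed linear level of 449 to 512 against 494 to 583 in the controls. The summed level of 11 newly formed oligodendrocyte genes, 10 of them above background on all arrays, was 81.2 to 82.5 there and at least 88.1 elsewhere on the slide. The choroid plexus markers, from a tissue beside the cerebellum, had a median of 1.89, with a summed level of 240 to 326 against 50.9 to 125 in the 4PBA controls. With vehicle they were at 180 to 371 in the knockouts and 192 to 238 in the controls, so that the 4PBA controls were the low arrays of the slide. The part of that tissue in the member values was not tested.

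**Figure D4:**
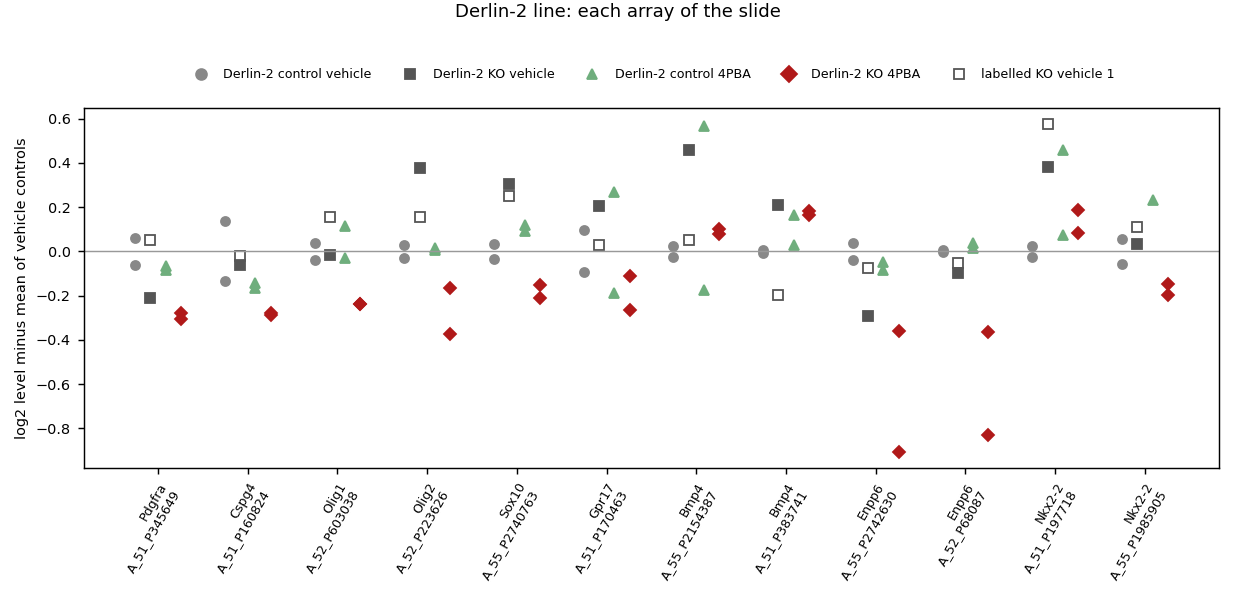
Log2 level minus the mean of the Derlin-2 vehicle controls (y axis) for 12 probes (x axis) on the 8 arrays of the Derlin-2 slide; the open square is array KO vehicle 1, whose Derl2 goes against its label. The red diamonds, Derlin-2 KO with 4PBA, are the lowest of the slide for 8 probes, both Enpp6 probes among them.

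In controls of either line, 4PBA against none or vehicle gave no call among the members. The lettered arrays without 4PBA name no injection, so 4PBA and injection cannot be told apart in that series. In Derlin-1 controls the median of the 12 probes was -0.04 (0.00 for all probes, 0.0341% called; 1 of 12 at an unadjusted p under 0.05, beside 2.28% of all probes), and in Derlin-2 controls 0.04 (-0.05, 0.178% called, which was 68 probes, and 3585 with no filter on dim probes, none of them a member; 0 of 12, beside 6.98%). In Derlin-1 KO no member passed either, and the median was -0.10 (-0.01, 0.0525% called; 3 of 12, beside 5.43%). There the difference with 4PBA was -0.35 for Olig2 (SE 0.11, adjusted p = 0.774), -0.24 for Olig1 (SE 0.08, adjusted p = 0.84) and -0.23 for Cspg4 (SE 0.08, adjusted p = 0.828). Without both arrays in doubt the 3 values were -0.42, -0.20 and -0.20.

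The Derlin-1 and Derlin-2 knockout effects were also compared directly. Without 4PBA no member passed (0.0682% of all probes did; 0 of 12 at an unadjusted p under 0.05, beside 10.9% of all probes), and the differences, Derlin-1 minus Derlin-2, ran from -0.42 for Nkx2-2 A_51_P197718 to 0.29 for Bmp4 A_51_P383741. Under 4PBA all 12 differences were above 0, with a median of 0.23 (-0.03 for all probes, 0.0893% called), and none passed. Of all probes 55.8% were below 0. These differences subtract the Derlin-2 KO change under 4PBA, in which 11 of the 12 probes were lower. The highest were 0.50 (SE 0.25, 95% interval -0.04 to 1.04) for Bmp4 A_55_P2154387 and 0.50 (SE 0.29) for Enpp6 A_52_P68087. Without both arrays in doubt the medians were -0.15 without 4PBA and 0.22 under it.

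The genes whose slide-centred levels followed a member most closely over the 24 arrays were sought among 20268 probes. Enpp6 was followed by Trf, the transferrin gene (r = 0.91), Rap1gds1 (0.90) and Mag, a myelin-associated glycoprotein (0.89). Olig1 was followed by Scn4b (0.86), Pdgfa, a ligand of Pdgfra (0.86), and Anln (0.84), and Anln was also the second for Olig2 (0.76) after Otop2 (0.78). Bmp4 was followed by Rph3al (0.88), Gpr17 by Crem (0.90), Pdgfra by Nek7 (0.87), Cspg4 by Ppargc1a (0.85), Sox10 by Kcnk13 (0.81) and Nkx2-2 by Slain1 (0.80). These correlations share arrays and group differences and are a description only.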

How the data were processed

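Total RNA of cerebellum was hybridised to single-colour (Cy3) arrays. The deposited intensities are the scanner software's processed signals, per the file headers (Agilent Feature Extraction 10.7.1.1, per the submitters' processing notes). The deposited value table holds the same intensities (largest log2 difference 1.74e-06) and served as an alternative.

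Control and outlier-flagged spots were left out, spots of a probe were averaged, and log2 intensity minus each array's 75th percentile was fitted with limma 3.58.1 in R 4.3.3: 24 arrays, a mean for each of 12 groups. The fit covered 38115 probes well above background on both arrays of at least 1 group. Derlin-1 comparisons are equal-weight means of the numbered and lettered series. The design fixed 13 comparisons, and 8 were added. The added ones were the mean over both series and injections, those within a single series, and the lettered minus numbered effect over both injections. Adjusted p-values are Benjamini-Hochberg values over all tested probes. The code was tested on simulated data.

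Named were every member probe, list genes with a called probe above background on every array, and, for likeness, 3 genes a member. Members and lists were chosen with earlier results of these data known. The number of arrays limits precision. Probe sequences were not used here. One list gene is not reported here.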

Additional observations from a re-analysis of the deposited data

How the results depend on the processing

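The settings were 15 alternatives in processing and samples and 24 single arrays left out. In Derlin-1 KO without 4PBA, 0 member probes passed under quantile normalization, median scaling, normexp on the spots' median signal, no filter on dim probes, array weights, only the arrays of the line compared, the numbered series alone and the lettered series alone, and 0 to 1 with single arrays left out. Median scaling moved the median of all probes there by -0.12. Under 4PBA, 1 member passed without both arrays in doubt, and 0 to 1 with single arrays left out. In the mean over both series and injections, 1 passed under median scaling, no filter on dim probes, array weights and the replicate block, 0 in the lettered series alone, and 1 to 3 with single arrays left out. Bmp4 A_51_P383741 reversed to -0.038 in the lettered series alone without 4PBA. The count stayed 0 in the other 11 comparisons that were refitted under these settings. The cause of these changes was not tested.

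With the replicate number or letter as a block, Olig2 had an adjusted p of 0.0438. The deviations of same-numbered arrays correlated over 0.1 for 3, 1 and 4 of the 6 pairs of groups on the 3 slides (from -0.21 to 0.65), not for every pair, and the labels tie the numbers to nothing shared, so the numbers were taken as names. Leaving out an array leaves 1 sample in its group, which was assumed to vary like the other groups. The all-probe count in Derlin-1 KO without 4PBA, 1881, ran from 9 to 3243 over the alternatives, and that of the added mean, 3697, from 182 to 4951. That of Derlin-1 KO under 4PBA, 23, ran from 1 to 1028, that of 4PBA against vehicle in Derlin-2 KO, 55, from 9 to 5248, and that in Derlin-2 controls, 68, from 7 to 3585. Counts of 5 to 63 in the other 9 comparisons ran from 0 to 319. The 75th percentile over tested probes (Olig2 at 0.43), normexp on the median signal and the fits without the arrays in doubt were chosen after seeing the data. The median of the members for 4PBA against vehicle in Derlin-2 KO was -0.51 under median scaling, where all probes moved by -0.20.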
